A study of Drosophila melanogaster with 2 samples.

Results

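The accessible sites described here lie in and around 8 genes that mark the rarer blood cell types of Drosophila, mapped by ATAC-seq in the S2 cell line. The 5 crystal cell genes were lz, peb, Pu, PPO1 and PPO2, and the 3 lamellocyte genes were PPO3, atilla and ItgaPS4. A site was counted when its summit, the base with the highest signal, lay inside the annotated span of one of these genes or within 5 kb of it. This gave 43 of the 35535 summits in the list of the series, in 38 intervals. ATAC-seq uses the Tn5 transposase, which inserts sequencing adapters where DNA is accessible. S2 is an embryo-derived line with features of plasmatocytes, the phagocytic and most common blood cell of the fly. The series had 1 group, S2 cells, with 2 libraries and 1 list of peaks for both. No replicate error therefore exists for any value below, and the study's other cells or treatments were not analysed here.

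Crystal cells store prophenoloxidases, the inactive precursors of the enzymes that make melanin, and rupture at wounds to release them. Lamellocytes are large flat cells that are rare in healthy larvae, appear after a parasitoid wasp lays its egg, and wrap the egg in a capsule that is then melanized. Notch signalling and the RUNX factor encoded by lz set the crystal cell fate, and lamellocytes carry surface proteins such as that encoded by atilla, together with integrins.

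The strength of a summit is given as its pileup, which is how many fragments the caller found to overlap there, recovered as a whole number from the authors' fold enrichment and p-value. That these are fragments is read from the peak names, and a caller that extended single reads would give the same numbers. Beside each pileup stands its exact 95% Poisson interval, which holds counting error alone. How deeply each library was sequenced is unknown. Pileups were not adjusted for chromosome copy number, which was not measured here. Heights on X and on the autosomes may therefore not share a scale. In a bulk library, a site accessible in few cells and a site weakly accessible in many cells cannot be told apart. Strand was not given in the gene table, so the ends of a gene are called left and right, from low to high coordinate in dm6, and which of them is the start was not used.

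All 8 genes had at least 1 summit in their window, against 88.0% of the 13946 protein-coding genes by the same rule. They fell into tiers at their own ends, as the map of all 43 summits shows. Summits nearest to the gene's own end, within 250 bp of it, reached 141 at Pu, 131 at lz and 121 at peb. At PPO3 and PPO2 the highest such summit was 43 and 41. PPO1, atilla and ItgaPS4 had none. A peak that overlapped the 250 bp on either side of an end by 1 bp or more was found for 5 of the 8 genes, against 60.4% of protein-coding genes. A summit within 250 bp of an end with no other gene's end nearer was likewise found for 5 of the 8, against 50.4%. Both counts are close to what these shares give for 8 genes, and no test was made.

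**Figure D1:**
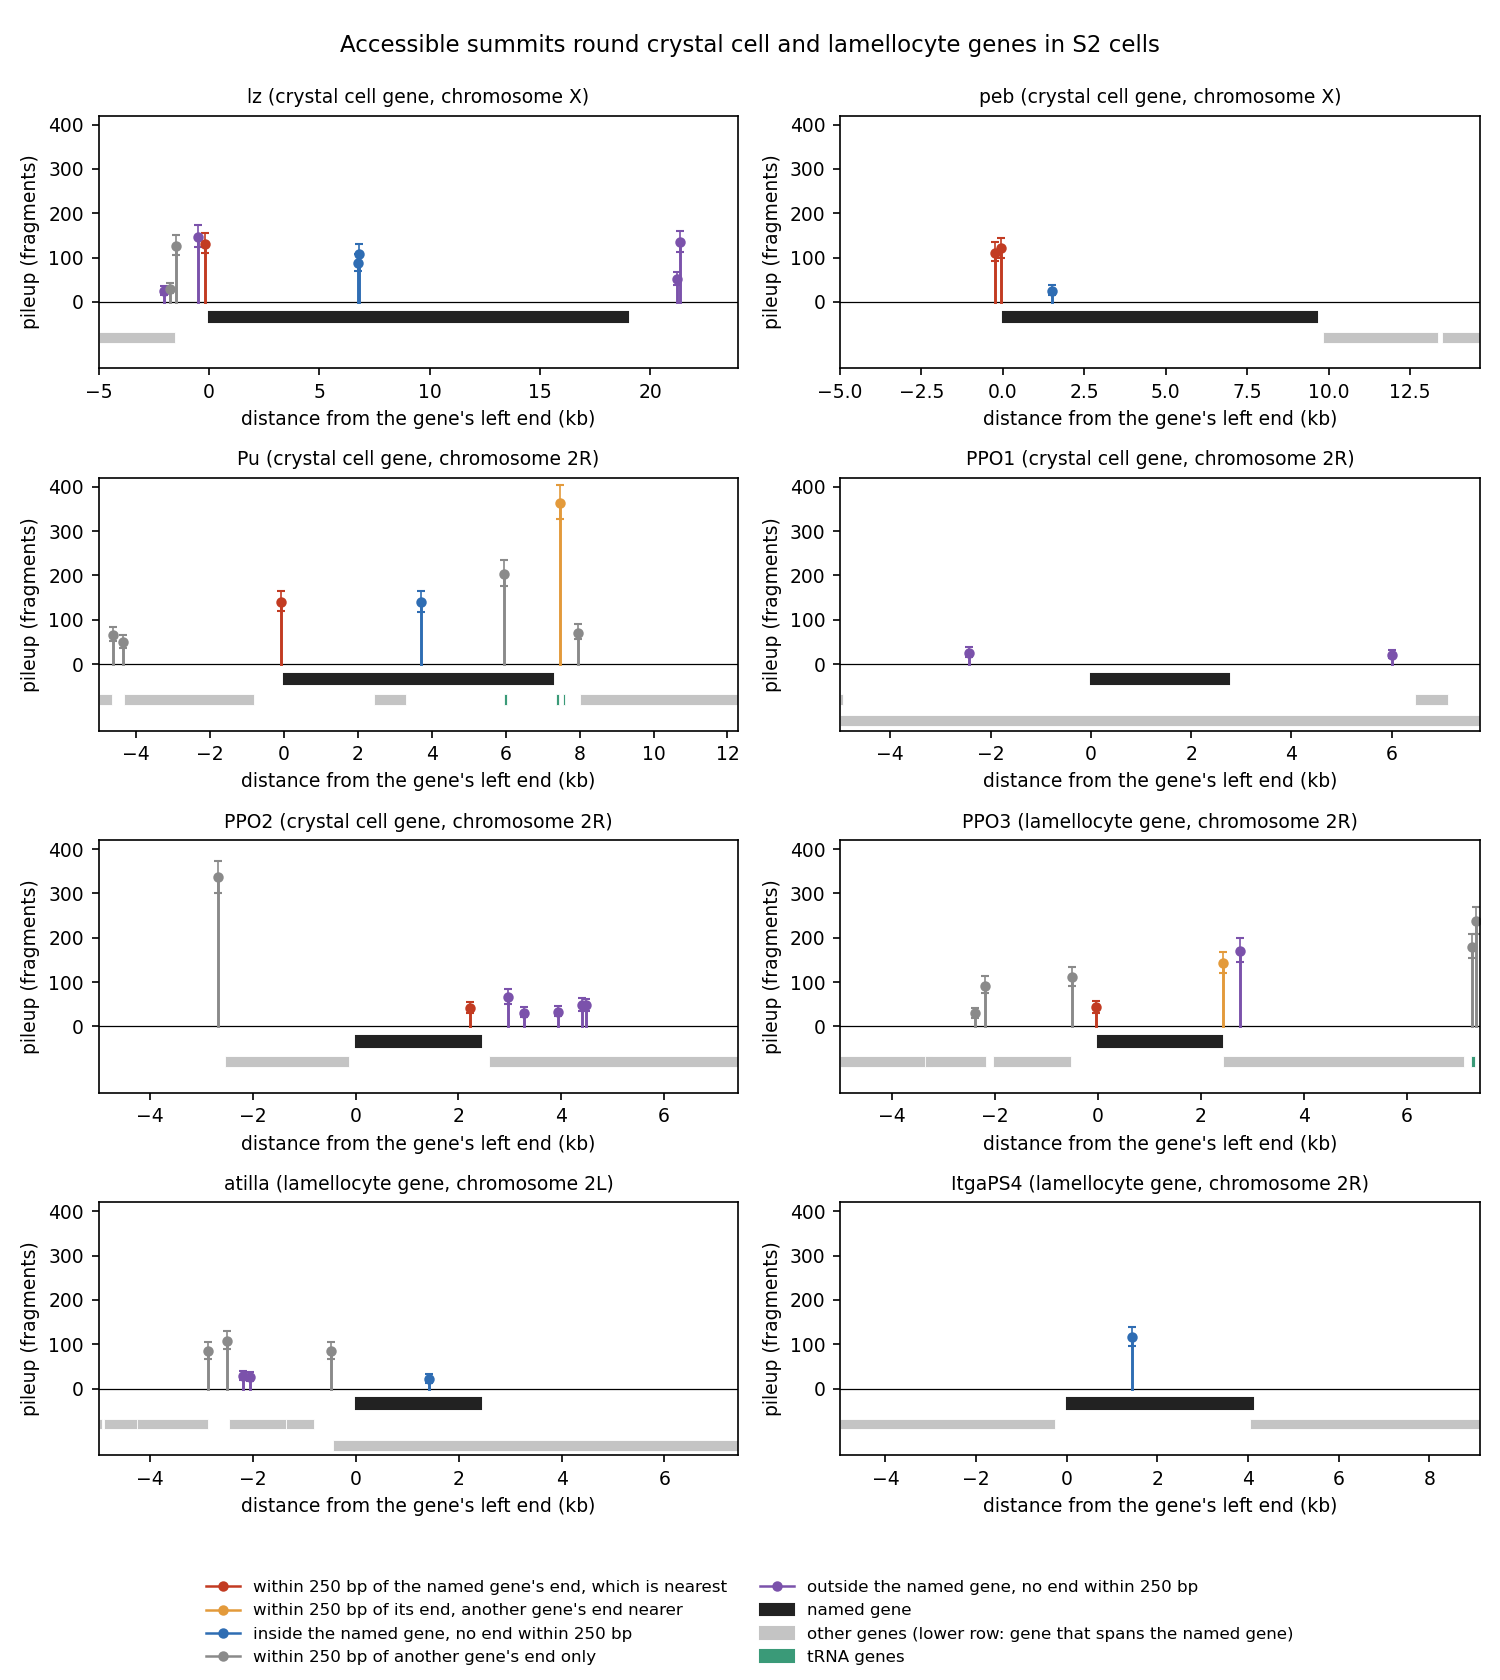
Pileup (fragments, y axis) of each of the 43 summits by its distance from the left end of the named gene (kb, x axis), in 8 panels. Points have exact 95% Poisson intervals, colours give the place of the summit, and boxes mark the named gene and the other annotated genes. The strongest summits of the Pu, PPO2, PPO3 and atilla windows, at 364, 336, 237 and 108, stand at the ends of other genes.

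Both transcription factor genes had peaks at an end of their own. lz, from 9284649 to 9303636 on X, encodes the RUNX factor that directs crystal cell formation and is also used in the eye. Its window held 9 summits in 7 intervals, and 5 of them were above 100. The gap of 1532 bp between lz and its left neighbour c11.1 held 3 of these. The summit at 9284456, 193 bp from the left end of lz, had a pileup of 131 (110 to 155) and was 11.7 times its background. A further 314 bp out, the summit at 9284142 had 147 (124 to 173), the highest value in the window. That at 9283140 had 126 (105 to 150) but lay 23 bp from the end of c11.1. The counting intervals of these 3 summits overlap, and whether they differ in strength was not tested.

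lz also had sites away from its ends. Inside the gene, 6731 and 6791 bp from the left end, an interval of 417 bp held a pair of summits with pileups of 88 (70.6 to 108) and 108 (88.6 to 130). Beyond the right end, at 2236 and 2370 bp, another interval held summits of 52 (38.8 to 68.2) and 134 (112 to 159), and no other annotated gene lay on that side within 5 kb. The inner summit of 108 and the right-hand summit of 134 overlap in counting error with the 131 at the left end, while the 88 and the 52 lie below it. The remaining 2 summits, of 24 and 30, lay inside c11.1. The next site beyond the window was 11230 bp from lz.

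peb, also called hindsight, encodes a zinc-finger factor that acts in crystal cell maturation and in many epithelia. It spans 4617564 to 4627206 on X. Of the 3 summits in its window, 2 were at its left end. An interval of 436 bp across the left end held summits with pileups of 111 (91.3 to 134) and 121 (100 to 145), 232 and 71 bp outside the gene. These overlap in counting error, although any fragment that spans both summits counts in each, so the 2 intervals are not independent. Another summit, 1523 bp inside the gene, had 25 (16.2 to 36.9). The right end of peb had no peak, although its neighbour Alms1b begins 174 bp away.

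Both transcription factor genes therefore had a left end of similar height, 131 at lz and 121 at peb. Among the 8421 protein-coding genes with a peak at an end, 68.0% had a highest end pileup at or below that of lz and 63.1% at or below that of peb. Both genes are on X, and these ranks were not adjusted for copy number. The local background of their summits lay between 9.91 and 10.6 fragments, at or just above the genome-wide value of 9.91 that the caller used as its lowest.

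Pu encodes GTP cyclohydrolase I, the first enzyme of the pathway to pteridines and tetrahydrobiopterin. Its window on 2R, around the span from 21175315 to 21182608, held the highest pileup of the 43. That summit, at 21182789, had 364 (328 to 403) and a fold of 19.7, and 97.8% of all summits in the list were at or below it. It lay 181 bp past the right end of Pu, but 40 bp from tRNA:Trp-CCA-2-6, in the interval between that gene and tRNA:Gly-GCC-1-13. A second strong summit, 204 (177 to 234), lay inside Pu, 20 bp from another tryptophan tRNA gene, tRNA:Trp-CCA-2-5. Genes for a tRNA occur in near-identical copies, and how the authors treated reads that match several copies is not known.

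The summits of Pu that were not at tRNA genes were weaker. At the left end, 74 bp outside the gene, the pileup was 141 (119 to 166) with a fold of 9.83. Inside the gene, 402 bp from the nested gene CG4286, a summit reached 139 (117 to 164). These values overlap each other and that of lz, and they do not overlap the 204 or the 364. The other 3 summits were at the ends of LSm1 (66), Xpd (49), which encodes a helicase of the general transcription factor TFIIH, and tud (71). Without the tRNA-adjacent summit at its right end, the highest end pileup of Pu was thus 141 and not 364.

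The 3 prophenoloxidase genes, all on 2R, had little accessible chromatin that was nearest to them. PPO1, from 17887220 to 17889973, encodes one of the crystal cell enzymes and lies within the much longer potassium channel gene Elk. It was the only one of the 8 genes without a peak at its ends or a summit in its span, which was the case for 33.6% of protein-coding genes. The nearest summits were 2433 bp to the left, with a pileup of 26 (17.0 to 38.1), and 3260 bp to the right, with 21 (13.0 to 32.1). They are 8446 bp apart and both are among the weak sites of the list, the second at a −log10 q of 1.73. A nearest summit 2433 bp away or farther was found for 18.7% of protein-coding genes.

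PPO2, from 9042261 to 9044709, encodes the other crystal cell prophenoloxidase and had 7 summits in its window. At the gene itself only 1 was found, a weak summit 227 bp inside the right end with a pileup of 41 (29.4 to 55.6) and a fold of 2.00. Its local background was 19.99 fragments, so the fold was among the lowest of the 43. The strongest summit, 336 (301 to 374) with a fold of 19.5, was 135 bp beyond the far end of Ance-4, which encodes a relative of angiotensin-converting enzyme, 2668 bp from PPO2. The other 5 summits, with pileups of 31 to 66, lay inside the right neighbour CG13743, which begins 141 bp from PPO2.

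PPO3, from 23064769 to 23067183, encodes the prophenoloxidase of lamellocytes. Its window held 8 summits, at the highest density of the 8 genes, 6.44 per 10 kb. The summit 23 bp outside its left end had 43 (31.1 to 57.9) and a fold of 2.77, and no other gene's end was nearer. At its right end the summit had 143 (121 to 168), 23 bp outside PPO3 but 10 bp from the end of l(2)k09913, which begins 13 bp after PPO3 ends. A further summit of 171 (146 to 199) lay 338 bp inside l(2)k09913, in an interval that reached into the 250 bp around the right end of PPO3. A pair of summits at tRNA:Ser-TGA-1-1, with 180 (155 to 208) and 237 (208 to 269), marked the right edge of the window, 4845 and 4925 bp from PPO3. The left side held 111 at CG9890 and 92 and 29 at DCTN3-p24, a dynactin subunit gene.

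The own-end summits of PPO2 and PPO3, 41 and 43, overlap in counting error. Their upper limits, 55.6 and 57.9, lie below the lower limits at Pu, lz and peb, which are 119, 110 and 100. This order concerns heights in 1 list and carries no replicate error. Local background differed as well: it was 9.91 at both PPO1 summits, 15.6 to 19.99 in the PPO2 window and 12.7 to 21.5 in the PPO3 window. Its part in the difference was not tested.

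**Figure D2:**
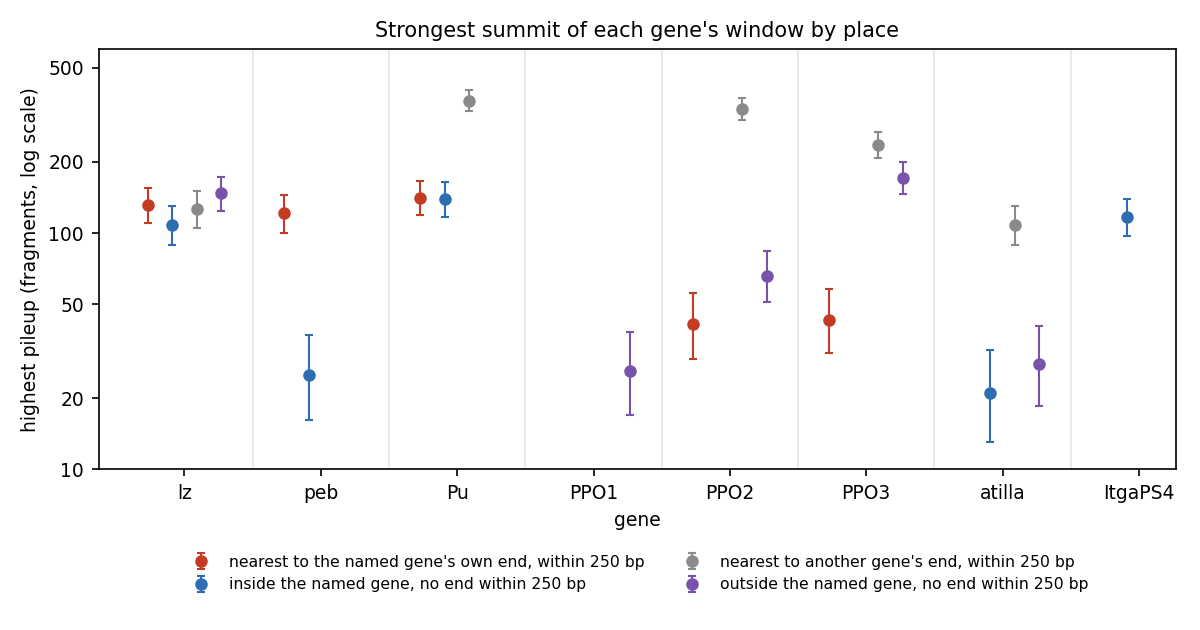
Highest pileup (fragments, log scale, y axis) in each place for each of the 8 genes (x axis), with exact 95% Poisson intervals. A place without a point held no summit. Own-end summits (red) reach 121 to 141 at lz, peb and Pu and 41 to 43 at PPO2 and PPO3, and are missing at PPO1, atilla and ItgaPS4.

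The remaining lamellocyte genes, atilla and ItgaPS4, had a summit in their span and no peak at their ends, a combination found for 6.04% of protein-coding genes. The inner sites differed in strength. atilla, from 12175451 to 12177886 on 2L, encodes a GPI-anchored surface protein that is the L1 antigen of lamellocytes. It lies inside the long gene bru1, whose left end is 447 bp outside that of atilla. Its only inner summit had a pileup of 21 (13.0 to 32.1) and a −log10 q of 1.73, and 3.87% of all summits had a pileup that low or lower. The nearest stronger site, 84 (67.0 to 104), lay 487 bp outside atilla and 40 bp from the left end of bru1. Others stood at the ends of crok (108) and CG6583 (84), and 2 weak ones, 28 and 25, inside crok.

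ItgaPS4, from 15258761 to 15262873 on 2R, encodes an integrin alpha subunit. It lies 263 bp from scb, another integrin alpha subunit gene, and overlaps the cation channel gene Trpm by 66 bp. Its window held 1 summit, the lowest number of the 8 genes, in an interval of 357 bp. This summit lay 1434 bp inside the gene, at 15260195, with a pileup of 117 (96.8 to 140) and a fold of 10.8. It did not overlap in counting error with the inner summit of atilla (21) and did overlap with the stronger inner summit of lz (108). It also overlapped with the 139 inside Pu, but not with the 204 inside Pu that is nearest to a tRNA gene. A summit inside the span was found for 6 of the 8 genes, against 43.9% of protein-coding genes. In PPO2 it was the one counted at its right end. The median gene length was 3433.5 bp for the 8 genes and 2161 bp for all protein-coding genes. The part of length in this share was not tested.

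Sites at other genes made up much of what the windows held. Of the 43 summits, 6 were nearest to an end of one of the 8 genes, within 250 bp, with a median pileup of 116. Another 2 were within 250 bp of such an end but nearer to another gene's. A further 15 were within 250 bp of another gene's end only, with a median of 92 and a range of 29 to 336. Inside one of the 8 genes and away from every end lay 6, with a median of 98 and a range of 21 to 139. The last 14 were outside the 8 genes with no end within 250 bp, with a median of 40 and a range of 21 to 171. In 4 of the 8 windows the strongest summit was nearest to another gene. Summits nearest to a tRNA gene end within 250 bp were 4 of the 43, or 9.30%, against 0.915% of all summits. They lay in 2 windows, and the pair of 180 and 237 at tRNA:Ser-TGA-1-1 shared 1 interval. The median pileup of the 4 was 220.5, against 108 for the 325 of the whole list.

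The windows were about as densely filled as those of other genes, and their summits were higher. They held 3.31 summits per 10 kb, against 3.57 over the windows of all protein-coding genes, and a median of 6.5 per gene against 5. The number ran from 1 at ItgaPS4 and 2 at PPO1 to 9 at lz. The median pileup of the 43 summits was 84 (quartiles 37 and 132.5), against 56 (33 and 109) for all summits, and the median fold was 6.88 against 3.61. Without the 4 at tRNA genes the median pileup was 71. More of the 43 were within 250 bp of some gene's end, 53.5% against 29.1%. Among summits at gene ends the medians were 111 and 76, and among the others 47.5 in the 8 windows and 49 over the whole list. The strongest summit per window had a median of 134 for the 8 genes and 137 for the 12270 protein-coding genes with a summit. No test was made of these differences, because the genes were chosen with results of these data known.

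**Figure D3:**
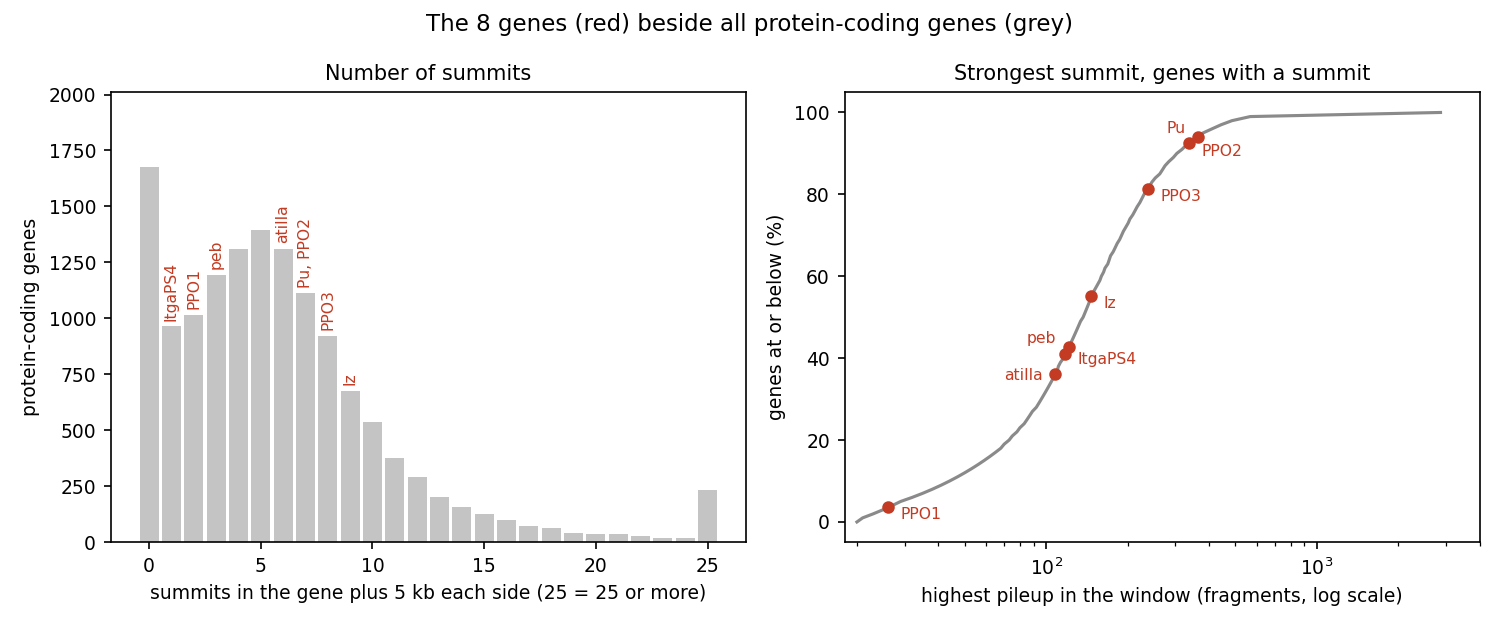
Left, number of summits per gene window (x axis) for all protein-coding genes (bars, y axis), with the 8 genes named at their number. Right, share of protein-coding genes with a summit (%, y axis) whose strongest summit is at or below the pileup on the x axis (fragments, log scale). PPO1 is at 3.69%, and atilla, ItgaPS4, peb and lz are between 36.2% and 55.2%. PPO3, PPO2 and Pu are at 81.4%, 92.5% and 94.0%. The strongest summits of atilla, PPO3, PPO2 and Pu are at other genes.

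Some summits lay close to the limit of 5 kb. The farthest summit kept anywhere was that of 237 at tRNA:Ser-TGA-1-1, 4925 bp from PPO3, and a summit of 202 at tRNA:Ser-TGA-2-1 was left out at 5368 bp. At ItgaPS4 a summit of 65 inside scb was left out at 5114 bp, and at PPO2 one of 31 inside CG13743 at 5352 bp.

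A peak at an end was found for 4 of the 5 crystal cell genes and 1 of the 3 lamellocyte genes, and for 7 of 8 genes that mark plasmatocytes, the cell type S2 cells most resemble. The share over all protein-coding genes was 60.4%, and no test of these counts was made. Heights overlapped between the lists. The highest end pileups of the plasmatocyte genes ran from 33 at NimC1, a phagocytosis receptor gene, and 43 at Sr-CI, a scavenger receptor gene, to 201 at eater and 346 at crq, which encode receptors for microbes and for dying cells. Hml, Pxn and Col4a1, genes for extracellular proteins, had 52, 102 and 101. The exception was vkg, a type IV collagen gene with 12 summits inside. At Hml, NimC1 and crq the nearest end belonged to a neighbour, as it did at Pu and PPO3. On the same measure Pu, at 364, was above all 7 plasmatocyte genes with a peak, although its interval overlaps that of crq (310 to 384). That height belongs to the summit nearest to a tRNA gene. Without it Pu, at 141, was below eater and crq, although the 346 of crq is itself at a summit nearest to a neighbour. The values of the plasmatocyte genes were not limited to summits nearest to their own ends. PPO3, at 171 for a summit nearest to l(2)k09913, was below eater and crq and above the other plasmatocyte genes with a peak. PPO2, at 41, was near the low end of the plasmatocyte range. The values of lz and peb, at 131 and 121, were above 5 of the 7. lz and peb are on X and the plasmatocyte genes on autosomes, and copy number was not adjusted for.

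Companion lists of genes from the same processes are read against the same 60.4% of protein-coding genes with a peak at an end, and against the median end pileup of 98 over the 8421 genes that had one. Genes are ranked here by fold. Of 10 genes of crystal cell fate 9 had a peak at an end, with N, the Notch receptor gene, at a fold of 15.7 (pileup 174) and klu, a zinc-finger gene, at 14.1 (240) in the lead. The exception was Bro, which encodes a partner of RUNX factors and had no summit inside. Its paralog Bgb had an end pileup of 91 (73.3 to 112). The GATA factor gene srp had 92 at an end and up to 499 inside. Inner summits reached 1003 in ush and 446 in N. The median end pileup of the members with a peak was 123.

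Of 10 melanization genes 7 had a peak at an end, near the share of 60.4% over all genes, with a median of 178. The highest fold, 20.3, was at Spn77Ba, a serpin gene, with a pileup of 327 (293 to 364). MP1, a melanization protease gene, was next by fold, at 18.2, and had the highest pileup of the list, 411 (372 to 453). Ddc and Hayan had no peak at an end. Hayan, which encodes a protease that acts in prophenoloxidase activation, had no summit within 5 kb, and ple, the tyrosine hydroxylase gene, had 1 summit, of 27. yellow-f and yellow-f2 share 1 end region, whose summit of 175 counts for both. All 5 genes of tetrahydrobiopterin synthesis and use besides Pu had a peak at an end (60.4% over all genes), with a median pileup of 111. The highest folds were 12.1 at pr (pileup 131, at an end nearer to neb) and 10.3 at Dhpr (111), while the highest pileup was 340 (305 to 378) at Pcd, at a fold of 9.21.

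All 6 other integrin subunit genes had a peak at an end (60.4% over all genes), with a median pileup of 59 against 98. The highest folds were 7.15 at if, at a summit nearer to its neighbour goe, and 4.73 at scb, and the highest pileup was 121 at mys, the gene for the main beta subunit. The single inner summit of ItgaPS4, at 117, compares with inner summits of up to 144 in scb, 117 in mys, 113 in Itgbn and 103 in mew. Those in if and ItgaPS5 reached 55 and 29. Of 7 other lamellocyte genes 6 had a peak at an end (60.4% over all genes), with a median of 178.5. The highest folds were 17.8 at betaTub60D, a tubulin gene (pileup 401), and 15.0 at Ets21C, a JNK-responsive ETS factor gene (472). cher, the filamin gene, had none at its ends but 18 summits inside, up to 157.

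**Figure D4:**
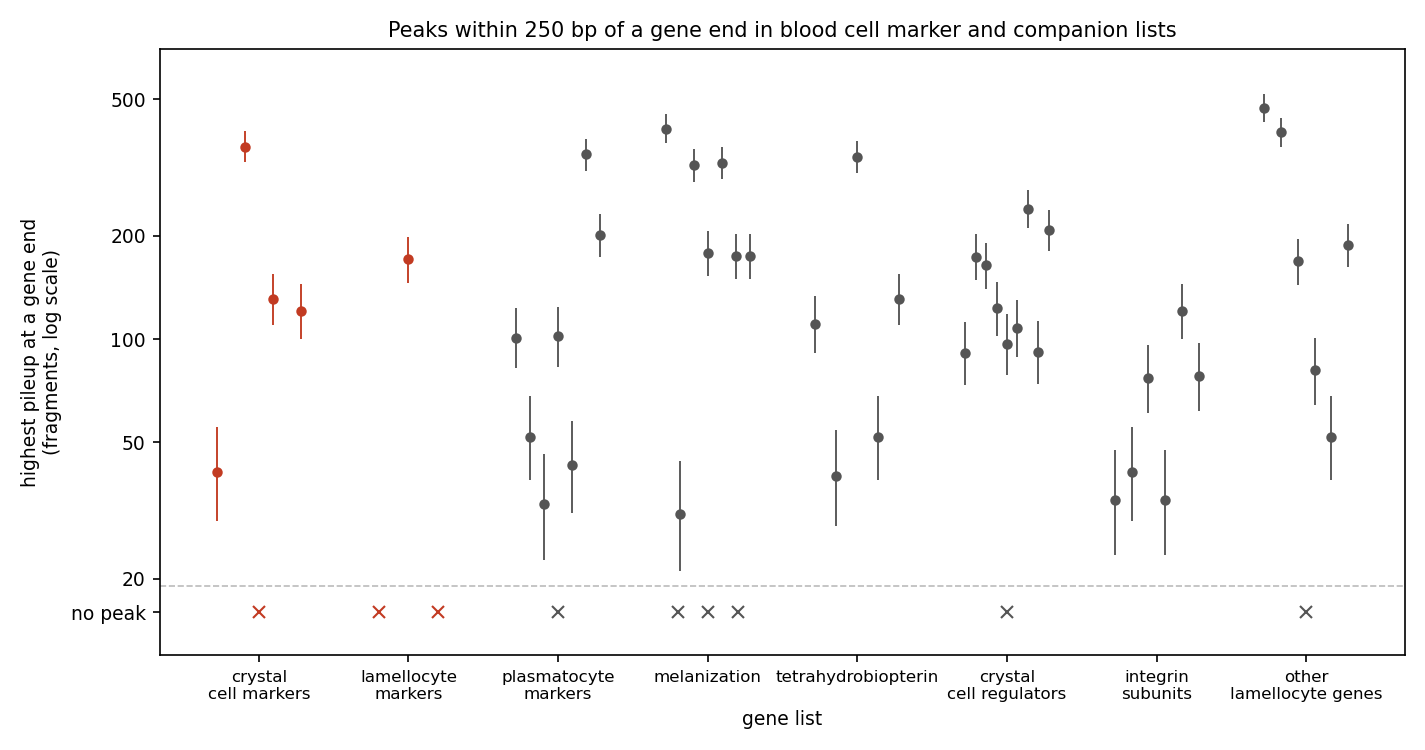
Highest pileup of a peak within 250 bp of a gene end (fragments, log scale, y axis) for each gene of 8 lists (x axis), with exact 95% Poisson intervals, crystal cell and lamellocyte genes in red. Crosses at the foot mark genes without such a peak: PPO1, atilla and ItgaPS4 among the red ones, and vkg, Ddc, Hayan, ple, Bro and cher among the others.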

How the data were processed

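ATAC-seq libraries were made from 2000000 S2 cells each, with 12 cycles of PCR, per the labels' protocols. The submitters' processing notes name Bowtie2, MACS2, deepTools and dm6. Versions, settings, pooling of the 2 libraries, and the treatment of duplicates and of the Tn5 offset were not stated in any source used here. The fold enrichment, a ratio of pileup to local background with a pseudocount of 1, and the −log10 p and −log10 q were used as deposited by the authors. The score column, as deposited, was not used. The number of columns of per-sample values left out was 0.

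Pileup and background were solved from the fold and the −log10 p under a Poisson upper tail. All 35535 summits were met within 0.001, and on simulated data 3000 of 3000 pileups were recovered. Genes came from a RefSeq table of Drosophila Release 6 plus ISO1 MT, matched by symbol (8 of 8), without strand or sequence; no sequence was used here. Python 3.11.15, pandas 2.3.3, numpy 2.4.6 and scipy 1.17.1 were used. The genes and lists were chosen with earlier results of these data known. Named genes were the 8, their neighbours at a summit, the plasmatocyte markers, and in each other list the 2 highest folds at an end and, of the genes without a peak, the first 2 in alphabetical order. Other names (Bgb, srp, ush, ple, yellow-f, yellow-f2, mys, Itgbn, mew, ItgaPS5, Pcd) were chosen after their values were seen. No test was run.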

Additional observations from a re-analysis of the deposited data

How the results depend on the processing

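Across 107 alternative values for 14 results, 69 were classed as unchanged. The limit of 1.5 times applied to counts. A median pileup of 109.5 against 84, and a strongest summit of 144 against 117 at ItgaPS4, were classed as moved. Alternatives that left a gene without any summit gave no value and are not among the 107. These were PPO1 under both thresholds, without flanks and with flanks of 2 kb, and PPO3 without flanks. The number of genes with a summit in the window (6 to 8) and with a peak at an end (4 to 6) stayed within 1.5 times under each alternative run. The 43 summits became 28 at a −log10 q of at least 10 and 28 at or above the median fold, 8 without flanks, 26 with flanks of 2 kb, and 18 where a summit had to be nearest to an end of one of the 8 genes, or inside it and in no other gene, among protein-coding genes. With genes of every kind, an alternative added after the data were seen, they became 17. Both rules are called by nearest gene below, although a summit kept as inside a gene can be nearest to another. The median fold in these settings was 9.08 for both thresholds, 4.95 with flanks of 10 kb, and 9.91 and 9.83 by nearest gene. The median pileup was 119 for both thresholds, 109.5 with 2 kb, 66 with 10 kb, and 114 and 111 by nearest gene. Under the same thresholds all summits had medians of 97 and 103. Summits per kb, 0.331 as reported, were 0.215 for both thresholds, 0.160 without flanks, and 0.138 and 0.131 by nearest gene. The strongest summit by nearest gene, with genes of every kind, was 204 at Pu, 41 at PPO2, 43 at PPO3 and 21 at atilla. The 204 was kept because it lies inside Pu and in no other gene, although tRNA:Trp-CCA-2-5 is nearest to it. The summit at the own end of Pu had 141. With flanks of 2 kb the strongest summit of any kind was 66 at PPO2, 171 at PPO3 and 84 at atilla, and with 10 kb 144 at ItgaPS4. At a −log10 q of at least 10 the PPO1 window held no summit, and neither the own-end summit of PPO2 nor that of PPO3 was kept. A start-only rule was not run, as the table gives no strand. Libraries could not be left out in turn, because 1 list served both. No paired analysis was possible because the series has 1 group and no values per library.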
